A study of Drosophila melanogaster with 2 samples.

Results

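The genes Atpalpha, nrv2, sinu, pck, Nrx-IV, Nrg, cora, pyd, shg and conv build and seal epithelial tubes such as the tracheae of the fly embryo, and they were examined for binding of the transcription factor Trachealess (Trh). They were taken as a named list, by a rule that uses no measured value but was written with earlier results of these data known, and all 10 symbols matched among the 13945 protein-coding genes of the annotation. Binding had been mapped by chromatin immunoprecipitation and sequencing (ChIP-seq) in Drosophila melanogaster. The single group was of whole embryos of mixed sex, aged 0 to 24 h, from a transgenic strain that stably expresses trh with a GFP tag at its C terminus. The precipitation used an antibody against GFP, while the antibody label of both samples reads trh, the tagged factor. Biological replicates 1 and 3 were available, with peaks of both called against the same control alignment. There was no second genotype, treatment or age, so the genes are set beside all protein-coding genes in the same lists. The embryos were whole, so no peak can be assigned to tracheal or any other cells, and the fusion protein stands in for native Trh.

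Septate junctions are the permeability barrier of insect epithelia and lie basal to the adherens junctions, which hold neighbouring cells together through E-cadherin. In the tracheae, mutants of many septate junction genes form tubes that are too long and convoluted, and junction components also affect the secretion of enzymes into the luminal matrix that limits tube length. Trh, a bHLH-PAS protein that works with its partner Tango, is needed for tracheal cells to form and to invaginate. The list joins septate junction genes (a sodium pump, claudin-like proteins, cell adhesion proteins and a scaffold) with the adherens junction genes pyd and shg. It also holds conv, whose product organises the luminal matrix and is not itself a junction protein.

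The sequences that follow show the DNA around some of the summits described below. They are from the release 6 genome of RefSeq in dm6 coordinates, 5′ to 3′ on the strand of the gene. The first 4 are peaks past the authors' threshold on the irreproducible discovery rate (IDR), a measure of how alike peaks rank between replicates. A peak past it need not rank alike in replicates 1 and 3. That at the internal start site of pyd had rank 1652 in replicate 1 and 20185 in replicate 3. The other 3 are the strongest peaks of pyd, Nrg and nrv2 outside that threshold. Capitals mark any of 6 short sequences that were searched on both strands. The windows printed are unlike, and only matches inside them are marked. Most reach 50 bp to each side of the summit. Those in the intron of Nrg and the first intron of pyd reach further on 1 side, to ACGTG matches 108 and 120 bp from the summit. Matches to GAGAG at Atpalpha and both pyd peaks past IDR, and to TGTTTAC at the internal start site of pyd, lie outside the printed windows. The conv peak, alone in having ACGTG within 50 bp of its summit, is not printed. In the first intron of pyd the capitals are TACGTG, and in the intron of Nrg they are ACGTG, each read on the opposite strand. At the first start site of Nrg they are TATCGATA. That window is not centred on its summit, at 8517360, and the TATCGATA in it lies more than 50 bp upstream of the summit. ACGTG is the core bound by dimers of Trh and Tango, and TACGTG, which holds it, is the longer form.
Atpalpha intronic peak, chr3R:20957469-20957569, plus strand: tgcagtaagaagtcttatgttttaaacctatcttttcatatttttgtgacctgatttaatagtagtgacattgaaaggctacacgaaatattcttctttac
pyd internal start site peak, chr3R:8846312-8846412, minus strand: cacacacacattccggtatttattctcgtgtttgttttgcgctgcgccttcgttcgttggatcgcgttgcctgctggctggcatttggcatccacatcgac
pyd first intron peak, chr3R:8927732-8927914, minus strand: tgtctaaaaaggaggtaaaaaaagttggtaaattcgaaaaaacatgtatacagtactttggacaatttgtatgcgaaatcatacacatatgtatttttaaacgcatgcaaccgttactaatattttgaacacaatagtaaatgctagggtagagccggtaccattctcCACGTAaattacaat
Nrg intronic peak, chrX:8538365-8538535, plus strand: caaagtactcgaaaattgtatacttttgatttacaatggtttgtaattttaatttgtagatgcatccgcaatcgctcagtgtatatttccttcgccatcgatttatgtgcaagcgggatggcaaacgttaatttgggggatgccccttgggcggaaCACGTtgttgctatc
pyd first start site peak, chr3R:8932050-8932150, minus strand: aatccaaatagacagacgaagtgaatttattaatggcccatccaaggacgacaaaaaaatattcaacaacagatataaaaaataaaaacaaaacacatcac
Nrg first start site peak, chrX:8517272-8517372, plus strand: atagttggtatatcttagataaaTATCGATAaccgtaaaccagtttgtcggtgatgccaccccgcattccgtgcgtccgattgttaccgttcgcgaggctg
nrv2 intronic peak, chr2L:6797607-6797707, minus strand: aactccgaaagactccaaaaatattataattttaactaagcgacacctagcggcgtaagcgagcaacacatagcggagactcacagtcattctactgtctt

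Of the 10 genes 6 (Atpalpha, pck, Nrg, pyd, shg and conv) held a peak past IDR with its summit in the gene or within 2000 bp of it. Over all protein-coding genes the share was 22.4% (3130 genes). The other 4, nrv2, sinu, Nrx-IV and cora, held none. The comparison depends on gene length. The window of a gene, its span with 2000 bp on each side, had a median of 13.8 kb for the 10 genes and 6.17 kb for all genes. Among windows over 30 kb, Atpalpha, Nrg and pyd all had a peak, against 42.7% of 783 genes. Between 10 and 30 kb, 1 of 4 had one (shg, but not nrv2, Nrx-IV or cora), against 33.7% of 2177 genes. Under 10 kb, 2 of 3 had one (pck and conv, but not sinu), against 18.8% of 10985 genes. These counts are of few genes, named with earlier results known, and were given no test.

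When a peak was instead given to the gene of the nearest protein-coding transcription start site (TSS), 4 of the 10 genes kept one, against 12.9% of all genes. They were Atpalpha, pck, pyd and shg. The peak in Nrg then went to PIP82 and that at conv to Sps1. In the list called on pooled replicates, which by its description holds both peaks and background, all 10 genes had a peak by span, against 73.3% of genes, and 8 had one by nearest TSS, against 57.3%. The full lists of replicate 1 and replicate 3 also held a peak for all 10, against 80.9% and 82.5% of genes. A count over these relaxed lists therefore says little about the 10 genes.

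**Figure D1:**
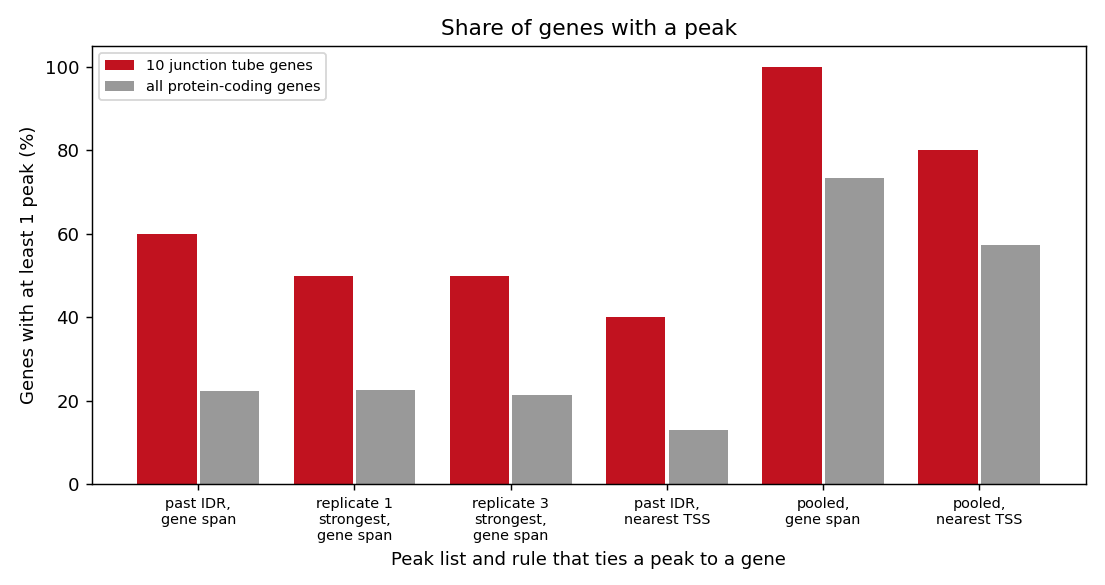
Bars show the share of genes with at least 1 peak (percent, y axis) for the 10 junction tube genes (red) and all protein-coding genes (grey), for each peak list and rule that ties a peak to a gene (x axis). The red bar is at 60% and the grey bar at 22.4% for peaks past IDR by span, and for pooled peaks by span they are at 100% and 73.3%.

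Within each replicate on its own, the same number of genes held a strong peak but not the same genes. Among the 2322 peaks of highest signal in replicate 1, as many as passed IDR, Atpalpha, pck, pyd, shg and conv had one, which is 5 of 10 against 22.7% of all genes. Among the 2322 highest of replicate 3, Atpalpha, Nrg, pyd, shg and conv had one, again 5 of 10, against 21.5%. The gene pck was thus in the first set and Nrg in the second, and nrv2, sinu, Nrx-IV and cora were in neither.

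**Figure D2:**
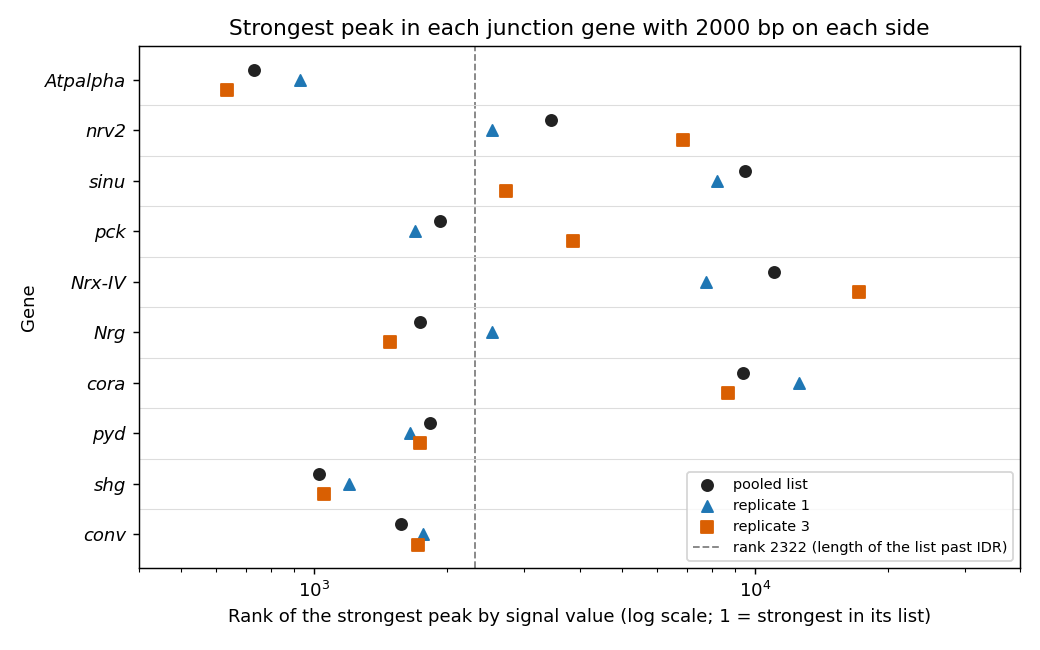
Each row is a gene and each point the rank of its strongest peak by signal value (x axis, log scale, 1 is the strongest of the list) in the pooled list (circle), replicate 1 (triangle) and replicate 3 (square), which differ in length. The dashed line is rank 2322: Atpalpha, pyd, shg and conv lie left of it in all 3 lists, and nrv2, sinu, Nrx-IV and cora lie right of it in all 3.

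The 8 peaks past IDR in these 6 genes were mostly among the weaker peaks of that list. Signal values, the score assigned to a peak by the authors' caller, used here to rank peaks within a list, ran from 78.9 to 136.8 with a median of 90.2. The 2322 peaks past IDR as a whole ran from 74.4 to 1016 with a median of 110.1, and 2 of the 8 were above that median. All 8 had a summit within 100 bp in both replicate lists, as did 94.2% of all peaks past IDR. In both replicates the match was among the 2322 strongest for 4 of the 8, against 68.1% of all. In replicate 1 alone it was for 7 of 8, against 85.6%, and in replicate 3 alone for 5 of 8, against 79.7%. Of the 8 summits 5 lay within 500 bp of a protein-coding TSS, against 52.3% of all.

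**Figure D3:**
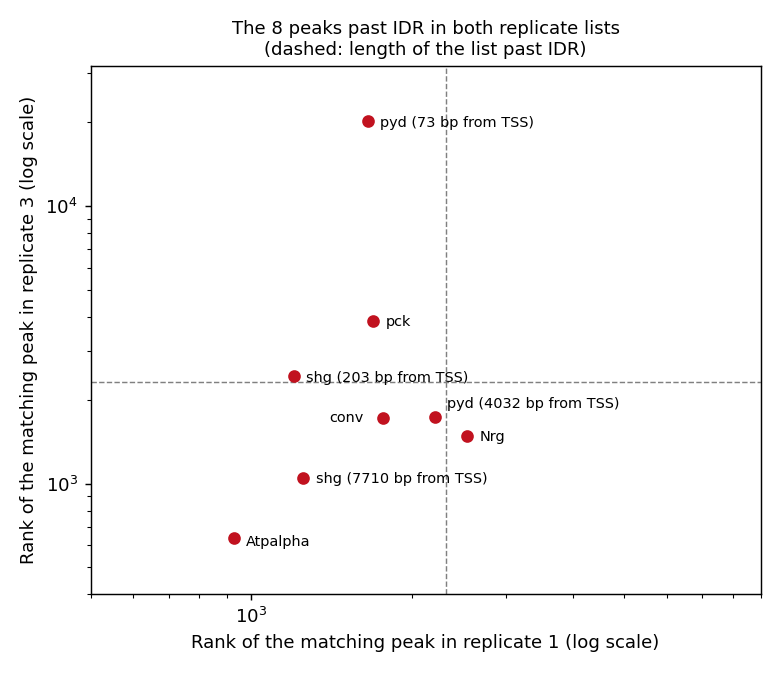
Each point is 1 of the 8 peaks past IDR, placed by the rank of its matching peak in replicate 1 (x axis) and replicate 3 (y axis), both on log scales, with dashed lines at rank 2322. The peaks of Atpalpha, conv, the first intron of pyd and the 3′ side of shg (7710 bp from the TSS) lie inside both lines, and the peak at the internal start site of pyd lies highest, at rank 20185 in replicate 3.

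The sodium pump of the septate junction is made of the α subunit Atpalpha and a β subunit such as nrv2. Atpalpha (FBgn0002921, dm6, chr3R:20948714-20976239, plus strand) held the strongest peak of the 10 genes. Its signal was 136.8 in the pool, stronger than 68.5% of peaks past IDR, 75.0 in replicate 1 (rank 927 of 28743) and 57.7 in replicate 3 (rank 636 of 30000). The summit, at 20957519, was in an intron, 215 bp upstream of an internal TSS and 8805 bp from the first TSS. Near the first TSS the strongest peak, 582 bp upstream, had a signal of 61.6 and pooled rank 3218. It had rank 3427 in replicate 1 and rank 24063 in replicate 3. Within the gene the strong peak was therefore at the internal start site in both replicates.

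The β subunit gene nrv2 (FBgn0015777, chr2L:6789770-6798862, minus strand) had 9 pooled peaks and none past IDR. The strongest, in an intron 537 bp downstream of a TSS, had a signal of 59.2, rank 3444 and a −log10 q value of 1.63, where peaks past IDR had at least 2.80. It was at rank 2531 in replicate 1, with a signal of 44.8, and at rank 20565 in replicate 3, with 13.7. Replicate 3 had its own strongest peak in the gene elsewhere, with a signal of 19.8 and rank 6877. The nearest peak past IDR lay 2469 bp beyond the 3′ end of nrv2, next to the related β subunit gene nrv1, so nrv2 gained a peak when 5000 bp were allowed on each side. This peak (signal 134.7, rank 756) and its neighbour (208.2, rank 279) were 440 and 230 bp from the TSS of nrv1. With 0.687 pooled peaks per kb nrv2 was the densest of the 10 genes in relaxed peaks, whose median was 0.318, against a median of 0.185 over all genes. Of the 9 pooled peaks of nrv2, 3 had a summit within 100 bp in both replicates, against 41.9% of all pooled peaks.

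The claudin-like proteins sinu and pck (also called Megatrachea) are membrane proteins of the septate junction that control tracheal tube size. pck (FBgn0013720, chrX:1470666-1472325, plus strand) had a single pooled peak, and it passed IDR. The summit, at 1470771, was in the 5′ UTR, 15 bp downstream of 1 of its 3 TSSs, with a signal of 83.1 (rank 1933, stronger than 16.8% of peaks past IDR). The summits of the replicates were at most 1 bp away, with a signal of 55.6 and rank 1692 in replicate 1 and a signal of 24.1 and rank 3856 in replicate 3. The peak also lay within 2000 bp of CG14778, CG32808 and CG14780. sinu (FBgn0010894, chr3L:5559470-5561598, minus strand) had 3 pooled peaks of signal 32.0 to 36.4, and its highest −log10 q value was 0.251. Its strongest peak in replicate 3 (signal 27.7, rank 2725) was in the 3′ UTR, while replicate 1 had no summit within 100 bp of it. The nearest peak past IDR was 16240 bp from the gene.

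Nrx-IV and Nrg, the fly neurexin and the L1-type neuroglian, are the adhesion proteins of the septate junction core, and cora, a FERM domain protein, is the scaffold that binds Nrx-IV inside the cell. Nrg (FBgn0264975, chrX:8517373-8555170, plus strand) had 12 pooled peaks. The 1 past IDR had its summit at 8538415, deep in the gene, in an intron 20674 bp from the nearest TSS of Nrg and 8717 bp from that of PIP82. Its signal was 87.4 in the pool, 44.7 in replicate 1 (rank 2536) and 38.2 in replicate 3 (rank 1488). At the first TSS of Nrg, 13 bp upstream, stood a peak of signal 62.5 and rank 3141. It was present in both replicates (ranks 3554 and 4297 in replicates 1 and 3), and its −log10 q value was 1.86.

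Nrx-IV (FBgn0013997, chr3L:12146519-12156990, plus strand) and cora (FBgn0010434, chr2R:19229063-19243751, plus strand) had the lowest densities of pooled peaks among the 10 genes. This order did not hold in the list of either replicate. Nrx-IV had 2 pooled peaks, or 0.138 per kb, and cora had 3, or 0.161 per kb, where all arms together had 0.157 per kb. The strongest had a signal of 34.2 and rank 11039 at Nrx-IV and 36.5 and rank 9395 at cora, with −log10 q values of 0.175 and 0.253. Neither of the pooled peaks of Nrx-IV had a summit within 100 bp in both replicates. The strongest peak of the gene in replicate 1 was in an intron, at rank 7750. In replicate 3 it was a different peak, in the 3′ UTR, at rank 17215. At cora 2 of 3 pooled peaks were matched in both, against 41.9% of all pooled peaks. The best rank of these matches was 8703, in replicate 3, for a peak that had rank 21855 in replicate 1. The nearest peaks past IDR were 7740 bp from Nrx-IV and 10983 bp from cora.

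**Figure D4:**
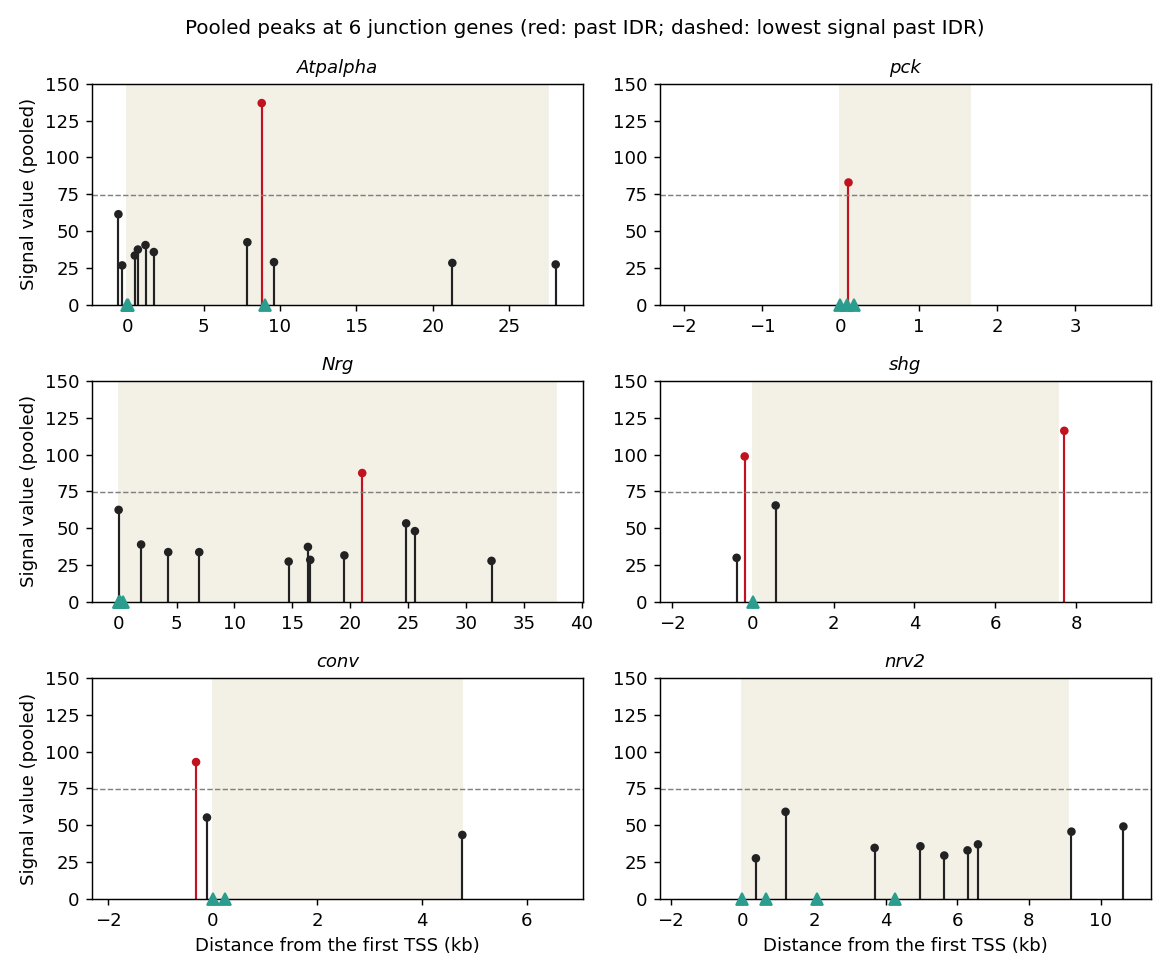
Pooled peaks (vertical lines, signal value on the y axis) at Atpalpha, pck, Nrg, shg, conv and nrv2 against distance from the first TSS along the strand of the gene (kb, x axis), with the gene shaded, TSSs as triangles, peaks past IDR in red and the lowest signal past IDR (74.4) dashed. The red peaks of Atpalpha (136.8) and Nrg (87.4) stand far inside the gene, those of pck and conv stand at the 5′ end, shg has one at each end, and nrv2 has none.

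The gene pyd encodes the fly homolog of ZO-1, a scaffold of the adherens junction that is also needed for tracheal cells to exchange contacts as the tubes narrow. It is the longest of the 10 genes (FBgn0262614, chr3R:8827068-8931896, minus strand, 104829 bp, 6 TSSs) and held 32 of the 80 pooled peaks in their windows. Its density, 0.294 per kb, was below the median of the 10. Of the 32, 15 had a summit within 100 bp in both replicates, against 41.9% of all pooled peaks.

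Of the 2 peaks past IDR in pyd, the one in the first intron was strong in both replicates and the other in 1 only. The first had its summit at 8927864, 4032 bp downstream of the first TSS, with a signal of 85.0 in the pool, 48.3 in replicate 1 (rank 2206) and 34.9 in replicate 3 (rank 1740). The second, at 8846362, was 73 bp upstream of the last of its 6 TSSs along the strand, with a signal of 78.9. It had a signal of 56.3 in replicate 1, the strongest peak of pyd there (rank 1652), but 13.8 in replicate 3 (rank 20185). Of the 2322 peaks past IDR, 4.05% had either no summit within 100 bp in replicate 3 or one at a rank past 20000, and 8 were of the second kind.

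Just outside the threshold stood a peak 204 bp upstream of the first TSS of pyd, with a signal of 74.2 and rank 2341. The weakest peak that passed had 74.4. Replicate 1 had it at rank 1924, and the nearest summit of replicate 3 was 330 bp away. Next came intronic peaks of signal 69.3 (rank 2618) and 63.2 (rank 3083). The second of these, 565 bp upstream of another internal TSS, was the second strongest of pyd in replicate 3 (signal 31.7, rank 2068) and at rank 5103 in replicate 1. In replicate 1 the internal start site, the first TSS and the peak of pooled signal 69.3 (rank 2201 there) all came before the first intron peak, which was the strongest of pyd in replicate 3.

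**Figure D5:**
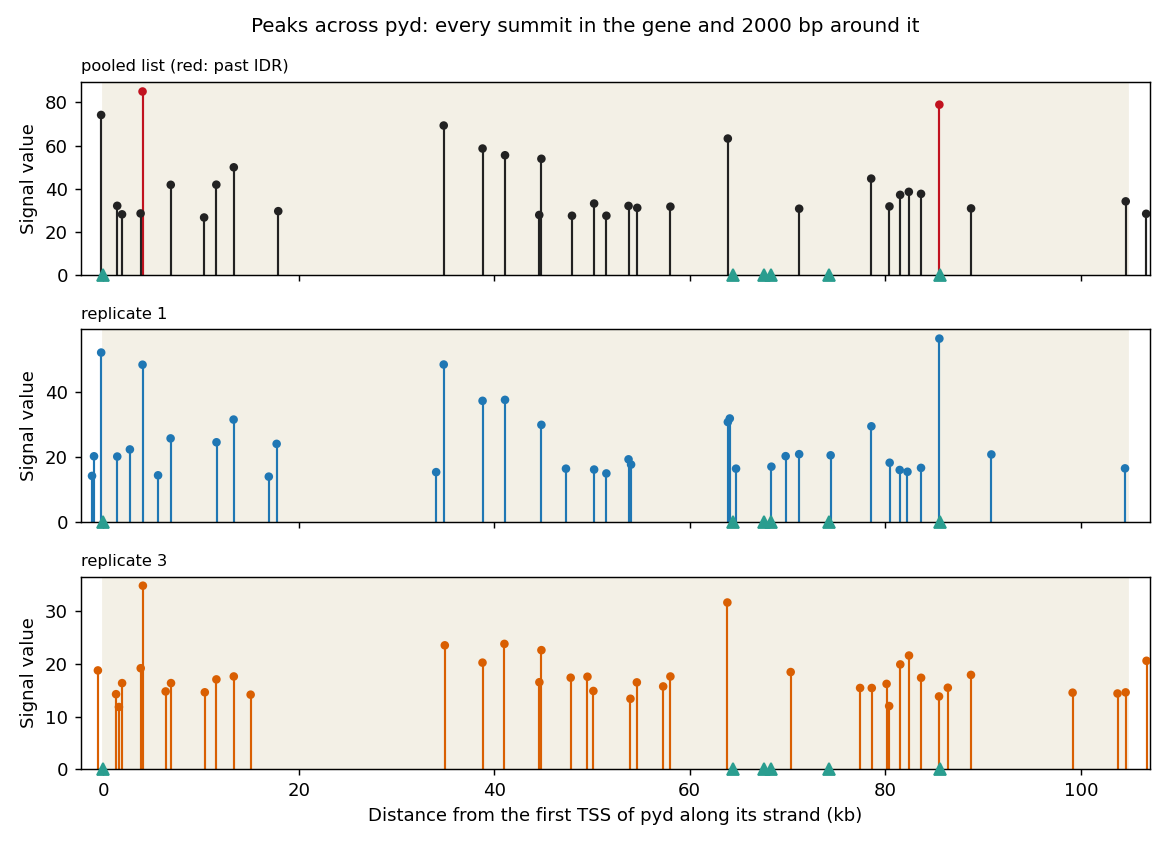
Every summit in pyd and 2000 bp around it, with signal value (y axis, own scale per list) against distance from the first TSS along the strand (kb, x axis), for the pooled list (top, peaks past IDR in red), replicate 1 (middle) and replicate 3 (bottom). The span is shaded and the 6 TSSs are triangles. The peak at the far internal TSS is the highest of replicate 1 (56.3) and among the lower ones of replicate 3 (13.8).

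E-cadherin, the adhesion protein of the adherens junction, is encoded by shg (FBgn0003391, chr2R:21049654-21057197, minus strand). Of the 10 genes, shg and pyd were the only ones with more than 1 peak past IDR. The stronger, at 21049487, lay 167 bp beyond its 3′ end, with a signal of 116.0 in the pool, 65.1 in replicate 1 (rank 1250) and 45.4 in replicate 3 (rank 1053). The other, at 21057400, was at the promoter, 203 bp upstream of the TSS, with a signal of 98.7 in the pool, 66.5 in replicate 1 (rank 1202) and 29.1 in replicate 3 (rank 2440), and also lay within 2000 bp of cpa. Replicate 1 thus gave both ends of shg nearly the same signal, and replicate 3 gave the 3′ end the higher one. A further peak in the 5′ UTR, 564 bp downstream of the TSS, had a signal of 65.5 and rank 2901 and did not pass. Both summits past IDR lie outside the gene, so shg had none when no flanking sequence was allowed.

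The gene conv (FBgn0261269, chr2R:14270729-14275495, plus strand) encodes a protein with leucine-rich repeats that is needed for the luminal chitin cable and normal tube length. Its peak past IDR, at 14270413, stood 316 bp upstream of its TSS, but in the 5′ UTR of the neighbour Sps1 and 245 bp from the TSS of that gene. The signal was 92.9 in the pool, 54.5 in replicate 1 (rank 1769) and 35.0 in replicate 3 (rank 1719). The summit of replicate 3 was 51 bp away and that of replicate 1 at the same base. A second peak of signal 55.3, also in the Sps1 UTR, was 108 bp upstream of the conv TSS. All 3 pooled peaks of conv were matched in both replicates, and over the 10 genes 41 of 80 were (51.25%), against 41.9% of all pooled peaks.

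The sequences under the 8 summits were mostly rich in A and T and mostly lacked the 6 sequences searched. The GC content within 50 bp of the summit had a median of 31.7%, against 32.7% at all summits past IDR and 42.2% over the arms. It was lowest, 26.7%, at the first intron of pyd and at the shg promoter. The exceptions were conv, at 57.4%, and the internal start site of pyd, at 52.5%. ACGTG was within 50 bp of 1 of the 8 summits, that of conv, against 6.68% of all summits, and within 100 bp of the same 1, against 13.1%. Over whole peaks it was in 3 of 8 (Nrg, the first intron of pyd and conv), against 26.5%. The matches stood 108 bp from the summit at Nrg, 120 bp at pyd and 29 and 89 bp at conv. At pyd the match was part of the longer TACGTG, which was in 8.31% of all peaks.

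The other 4 sequences searched were in none of the 8 windows of 50 bp to each side. TATCGATA, the site of the promoter-binding factor DREF, was in 1.94% of all such windows, the forkhead-type TGTTTAC in 4.22%, ACCGGTT, a sequence of the Grainyhead type, in 0.215%, and GAGAG, bound by GAGA factor, in 9.35%. Over whole peaks TATCGATA was in 1 of 8 (the shg promoter, 110 bp from the summit), against 6.29%. TGTTTAC was in 2 (pck and the internal start site of pyd), against 13.4%, and GAGAG in 3 (Atpalpha and both of pyd), against 43.2%. ACCGGTT was in none, against 1.55%. These matches describe letters and not occupied sites.

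In the promoters of the 10 genes, taken as 250 bp before to 50 bp after the first base, TATCGATA was present in 3 (Atpalpha, Nrg and shg), against 9.36% of all promoters. GAGAG was in 3 (Atpalpha, Nrg and cora), against 29.7%. ACGTG was in 1, that of Nrx-IV, against 23.2%. TACGTG (5.63% of all promoters), TGTTTAC (9.19%) and ACCGGTT (1.86%) were in none. The only such window with ACGTG belonged to a gene without a peak past IDR, but this rests on where the windows end. Both ACGTG matches in the conv peak lay just upstream of the conv window. Windows were set on the first base of each gene, so internal start sites were not covered.

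Related genes outside the list varied by group, in the share with a peak and in window length, and were given no test. Over all protein-coding genes the share with a peak past IDR was 22.4% by span and 12.9% by nearest TSS. By span it was 18.8% for windows under 10 kb, 33.7% for 10 to 30 kb and 42.7% over 30 kb. Of 22 other septate junction genes 10 had a peak past IDR by span (45.5%, median window 9.31 kb), namely vari, cold, bou, Mcr, nrv1, dlg1, Fas3, bark, M6 and pasi1. By nearest TSS 6 of the 22 had one. The 13 peaks by span had a median signal of 114.8. The strongest was at nrv1 (208.2), followed by Mcr, a complement-like protein (148.3, in an intron), bark (123.0, the highest of its 3 peaks) and cold (rank 954, 80 bp from its TSS). The highest peak of bark was 13076 bp from its TSS and 483 bp from that of Reph. Another of the 3, of signal 122.9, was 723 bp from the TSS of bark. Of 15 other adherens junction and apical polarity genes 10 had one (66.7%, median window 22.5 kb), all 5 with windows over 30 kb and 5 of the 10 others. By nearest TSS 9 of the 15 had one. The 15 peaks by span had a median signal of 86.5. The strongest were at cno, the afadin homolog (490.6, rank 26, in an intron 1926 bp from a TSS), the polarity scaffold baz (309.0, rank 104), sdk (157.5, 169 bp from its TSS) and par-6 (147.8, in the 5′ UTR of CG8188). Of the 10 other genes of the luminal matrix none had a peak past IDR, and the highest pooled signal there was 51.7, at dpy (rank 4378), a giant matrix protein. Against these groups conv was the only luminal matrix gene examined with a peak past IDR, and that peak was nearer to the TSS of Sps1.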

How the data were processed

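Trh-GFP ChIP-seq of whole embryos was available as 2 biological replicates of 1 group, numbered 1 and 3 in the labels, which name separate biosamples, and chromatin was sonicated, per the labels. Lists in narrowPeak layout were made by the authors, per the deposited file lists: a relaxed list of peaks and background for each replicate and for the pool, against 1 shared control alignment, and a list past IDR derived from them. Aligner and peak caller, and the cutoff for IDR, were not given in the sources used here. The signal value is the caller's score in the deposited lists, and the deposited −log10 q value ran from 2.80 to 3.48 past IDR. No counts or coverage were used, so depth is unknown and no interval can be given. The 4 lists in dm6 were used, and the 4 in dm3 were not used here for want of an annotation of that build.

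Summits were placed on the RefSeq release 6 genome with the Ensembl BDGP 6.54 annotation (13945 protein-coding genes on the main arms), 1-based. Peaks were tied to a gene by a summit inside it or at most 2000 bp outside. Summits matched when within 100 bp. Sequences were searched on both strands. Shares over genes or peaks are descriptions, and no test was made, since there was 1 group. The members, lists and sequences were chosen with earlier results of these data known, and the breakdown by window length was chosen after seeing the data. Named are the 10 genes, the genes of the nearest TSS or containing gene of their peaks, and up to 4 genes of each other list by signal. Genes in the same window, genes beside peaks of the other lists and the listed genes with a peak were named after their values were seen. So was dpy (written dp in the list and matched by its current symbol). Other windows, thresholds and single replicates were tried as alternatives. The rules were checked on simulated data. Python 3.11.15, numpy 2.4.6, pandas 2.3.3 and matplotlib 3.10.9 were used.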

Additional observations from a re-analysis of the deposited data

How the results depend on the processing

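Of 26 alternatives over 7 results, 21 left the value within 1.5 times and 5 did not. In the 1161 strongest of the peaks past IDR, 2 genes held a peak by span (Atpalpha and shg), 2 by nearest TSS, and 10 of the 47 other genes, against 20 in the full list, and fewer peaks are used there by construction. Of the 8 peaks, 4 were matched in both replicates when only the 2322 strongest of each were used. ACGTG was in 3 of 8 peaks over whole intervals, which are longer. The count by span was 4 with no flanking sequence, 6 with 1000 bp, 7 with 5000 bp and 5 within 1000 bp of a TSS. Without a replicate, this count used the 2322 strongest peaks of the other, as no list was called anew. It was 5 without replicate 1 and 5 without replicate 3, but the genes differed (pck only in replicate 1, Nrg only in replicate 3). By nearest TSS the count without each replicate was 3 to 4. For the other genes it was 15 by nearest TSS, and by span without each replicate 16 to 17. The alternatives for the other genes and the pooled list were chosen after seeing the data. No paired analysis was possible because there was 1 group. Depth is unknown, so a gene without a peak past IDR may hold binding too weak for these libraries.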
